A study of Mus musculus with 24 samples.

Results

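Vertebral skeletal progenitors that carried embigin were compared by Zic1 lineage, as 4 libraries of GFP+ cells against 4 libraries of GFP- cells, out of 24 libraries in the study. GFP expression depended on a Zic1-linked Cre, so GFP+ cells are those in which, or in an ancestor of which, Zic1 had been active. A gene entered the comparison when 4 or more of these 8 libraries reached an FPKM of 1, which left 10689 of the 21865 protein-coding genes kept. FPKM counts sequenced fragments relative to transcript length and to the library's mapped fragments.

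Both groups came from the spine of male mice on postnatal day 10, with the genotype labelled WT. The cells were sorted as CD45-, Ter119-, CD31-, Thy1-, 6C3-, CD105- and CD200+, and then as EMB+. The allele that carries GFP is not given in the sources used here. GFP+ and GFP- cells with the same gate but sorted as EMB- (4 libraries each) and EMB+ cells of femur and tibia, which are all GFP- (4 libraries), are set beside them below. The sample titles call the replicates biological, but the labels do not state separate animals, and the p-values below therefore reflect library-to-library spread that may be technical. The titles of the 4 GFP- EMB+ libraries give their cells as Emb- and GFP+, which goes against their cell type labels, and the cell type label was used.

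RNA of the sort genes bore on the labels directly. Emb, which encodes embigin, had 48.7, 56.5, 48.2 and 46.6 FPKM in GFP+ EMB+ replicates 1 to 4, against 51.0, 47.4, 55.3 and 44.4 FPKM in GFP- EMB+ replicates 1 to 4. The libraries of both groups were thus alike in Emb, while the means in the EMB- groups were 0.398 FPKM in GFP+ and 1.03 FPKM in GFP- cells. Cd200 averaged 142 ± 15.8 FPKM in GFP+ and 129.9 ± 8.72 FPKM in GFP- EMB+ cells (SD, n = 4 each), and Eng, which encodes CD105, 1.34 ± 0.183 and 1.82 ± 1.07 FPKM. Thy1 reached at most 0.0274 FPKM in GFP+ and 0.0551 FPKM in GFP- libraries. Ptprc, which encodes CD45, reached 0.263 FPKM in GFP+ and 1.8 FPKM in GFP- libraries, and Pecam1, which encodes CD31, 1.06 FPKM in GFP+ and 4.05 FPKM in GFP- libraries. Cartilage genes were among the most abundant in both groups: Col2a1, the main collagen of cartilage, averaged 38532 ± 1054 FPKM in GFP+ and 37950.4 ± 782 FPKM in GFP- cells.

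The 8 libraries were alike in overall make-up. Their FPKM summed to between 423704 and 451914, 10464 to 10908 genes reached an FPKM of 1, with 19.7% to 21.7% of the sum in the top 10 genes. The number of reads behind a value is unknown.

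As background, Zic1 and Zic4 are neighbouring zinc finger genes transcribed in opposite directions, with roles in the dorsal neural tube and in the somites, the blocks of mesoderm that give rise to vertebrae, ribs and trunk muscle. The ventral part of a somite, the sclerotome, forms the vertebral bodies around the notochord, a rod of midline cells that regresses into the nucleus pulposus of the intervertebral discs. Embigin is a membrane glycoprotein of the immunoglobulin superfamily that partners with monocarboxylate transporters.

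The 250 bases upstream of a RefSeq start of Zic1 and of Zic4 are shown. The sort rests on Zic1, Zic4 is its neighbour, and both were higher in GFP+ cells. These stretches are from GRCm38.p6, written 5′ to 3′ on the strand of the gene, with capitals for GGGCGG, the GC box. The Zic1 stretch is chr9:91365769-91366018 on the minus strand and the Zic4 stretch chr9:91368722-91368971 on the plus strand.
Zic1: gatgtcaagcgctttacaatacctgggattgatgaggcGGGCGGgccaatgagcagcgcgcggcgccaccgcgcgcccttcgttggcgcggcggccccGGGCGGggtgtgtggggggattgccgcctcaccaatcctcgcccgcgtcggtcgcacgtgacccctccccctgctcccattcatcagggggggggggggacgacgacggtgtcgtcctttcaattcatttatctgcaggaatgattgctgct
Zic4: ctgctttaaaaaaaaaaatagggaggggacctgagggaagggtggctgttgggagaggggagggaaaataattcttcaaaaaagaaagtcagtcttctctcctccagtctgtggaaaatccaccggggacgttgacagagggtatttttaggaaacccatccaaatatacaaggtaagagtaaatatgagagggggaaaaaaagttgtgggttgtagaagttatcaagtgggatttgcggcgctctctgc
These RefSeq starts lie 3204 bases apart. The Zic4 stretch lies inside the longer span of Zic4 given below, so it is upstream of that RefSeq start only. The Zic1 stretch has a GC content of 66.0% and 2 GC boxes, and the Zic4 stretch has 44.4% and 0. On either strand, CAGCAGG, the core of a published Zic binding motif, and TATAAA had 0 matches in both stretches. Among 32851 upstream stretches of the same length, 8.4% held CAGCAGG, 32.7% held GGGCGG and 12.4% held TATAAA. These are descriptions of letters, not of bound sites.

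GFP+ and GFP- cells differed in few genes, and most of these were lower in GFP+ cells. With limma on log2(FPKM + 1) and Benjamini-Hochberg adjustment at 0.05, 211 of the 10689 genes were called (1.97%), 41 higher (0.384%) and 170 lower in GFP+ cells (1.59%). Of these, 12 higher (0.112% of genes tested) and 103 lower genes (0.964%) differed by 2-fold or more. The shares of 0.384% higher and 1.59% lower over all genes are those to set beside each list count below. Folds on this scale are smaller than the true ones for genes of low level. The median difference over all genes tested was -0.02, and 874 genes had an unadjusted p under 0.05. The groups did not overlap in 358 genes with all GFP+ libraries higher (3.35%) and in 520 genes with all GFP+ libraries lower (4.86%).

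Same-numbered libraries of the groups deviated together, and the pairing bears on the number of calls. All 41 higher genes were higher in GFP+ cells in 4 of 4 same-number pairs, a pattern found in 11% of genes tested. All but 1 of the 170 lower genes were lower in 4 of 4 pairs, against 17% of genes tested. The groups did not overlap in 198 of the 211 called genes, which by itself fixes the direction of every pair. These pair counts of called genes therefore do not bear on the pairing. A fit of only these 8 libraries with the replicate number as a block called 843 genes, 285 higher and 558 lower, and the same fit without the block 277, of which 86 were higher. Quantile normalization called 83 higher and 170 lower, and without GFP+ EMB+ replicate 2 the higher calls were 20.

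**Figure D1:**
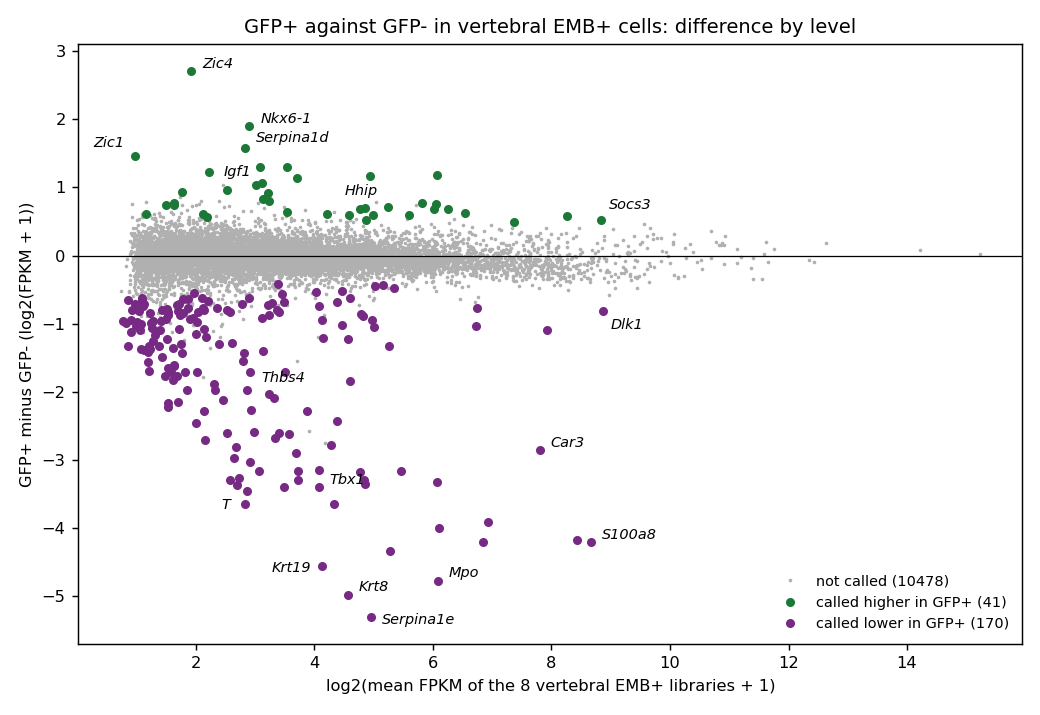
Difference between GFP+ and GFP- EMB+ cells (vertical, log2(FPKM + 1)) against the mean level over the 8 libraries (horizontal, log2) for the 10689 genes tested. Green points are the 41 genes called higher and purple points the 170 called lower in GFP+ cells; the largest differences are in the lower genes, down to -5.30 for Serpina1e.

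Zic4 and Zic1 had the largest and the fourth largest positive differences, and Zic4 RNA was more abundant than Zic1 RNA. Zic4 (chr9:91362413-91389348, GRCm38) had 5.95, 4.13, 6.42 and 5.82 FPKM in GFP+ replicates 1 to 4, against 0, 0, 0 and 2.84e-08 FPKM in GFP- replicates 1 to 4. Zic1 (chr9:91358058-91365810) had 1.51, 2.39, 1.62 and 1.97 FPKM in GFP+ and 0.0101, 0.0480, 0 and 0.108 FPKM in GFP- libraries. In both genes every GFP+ library was above every GFP- library, and the GFP- libraries were at or near 0. The differences on the log2(FPKM + 1) scale were 2.70 for Zic4 (SE 0.13, limma adjusted p = 6.6e-14) and 1.46 for Zic1 (SE 0.13, adjusted p = 3e-08). GFP expression depended on a Zic1-linked Cre, so the direction of Zic1 is not independent of the sort. GFP marks past as well as present Zic1 activity. Zic5 had 0.332 to 0.384 FPKM in GFP+ and 0 to 0.199 FPKM in GFP- libraries, and Zic2 reached 0.122 FPKM in GFP+ libraries and was listed at 0 in GFP- libraries. These 2 genes did not pass the filter on low values. Zic1 and Zic4 overlap on opposite strands in the annotation, and the library kits keep no strand, so reads from the overlap cannot be told apart.

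Among other transcription factors, Nkx6-1 stood out. Nkx6-1, a homeodomain factor known from pancreatic beta cells and the ventral neural tube, had 9.42, 10.1, 11.1 and 12.5 FPKM in GFP+ replicates 1 to 4, against 1.78, 2.64, 2.54 and 1.76 FPKM in GFP- replicates. The lowest GFP+ library was more than 3 times the highest GFP- library. The difference was 1.89 (SE 0.15, limma adjusted p = 9.9e-10).

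The factors that pattern the sclerotome and the body axis differed less. Of 8 tested members of a list of sclerotome and somite factors, 0 were called higher and 0 lower, with a median of 0.16 against -0.02 over all genes. Their differences ran from -0.44 to 0.45, and the members at these ends are not among those named here. Pax1, a paired-box factor of the sclerotome, averaged 76.4 ± 4.27 FPKM in GFP+ and 61.9 ± 5.32 FPKM in GFP- cells (SD, n = 4 each), a difference of 0.30 (limma adjusted p = 0.62). Nkx3-2, a homeodomain factor of sclerotome and cartilage, averaged 47.6 ± 5.51 and 40.1 ± 6.49 FPKM, a difference of 0.25 (adjusted p = 0.66). Both were called higher in the fit of the 8 libraries with the block (adjusted p = 0.014 for Pax1 and 0.030 for Nkx3-2). Pax9, a relative of Pax1, differed by 0.07 and Uncx, a homeodomain factor of the posterior somite, by -0.27, with adjusted p of 0.99 and 0.64.

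Hox genes, which set position along the axis, gave 1 call among 22 tested members of the 4 clusters. Hoxb9 had 3.27, 5.88, 4.21 and 3.61 FPKM in GFP+ and 2.03, 3.38, 2.11 and 2.12 FPKM in GFP- replicates 1 to 4, a difference of 0.61 (SE 0.16, limma adjusted p = 0.041). Groups overlapped in Hoxb9, since GFP- replicate 2 was above GFP+ replicate 1, and the call was lost without any of 6 of the 8 libraries taken singly (GFP+ replicates 2, 3 and 4 and GFP- replicates 1, 3 and 4; adjusted p up to 0.235). In the unblocked fit of only the 8 libraries the Hoxb9 call was lost too (limma adjusted p = 0.0875). The 5 tested HoxB genes all had positive differences, with a median of 0.31. Hoxb6 differed by 0.48 (adjusted p = 0.26, or 0.033 with the block) and Hoxc8 by -0.42 (adjusted p = 0.21, or 0.023 with the block), in opposite directions. The median was 0.25 over 9 HoxA genes and -0.01 over 6 HoxC genes. In long bone EMB+ cells Hoxb9 averaged 0.0754 FPKM, Hoxb6 0.0626 FPKM and Hoxc8 2.81 FPKM.

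Several named higher genes encode signals or receptors. Igf1, the insulin-like growth factor of bone and cartilage, had 10.5, 9.66, 10.9 and 11.8 FPKM in GFP+ replicates 1 to 4, against 3.9, 4.50, 5.07 and 5.00 FPKM in GFP- replicates. All GFP+ libraries were close to each other and well above all GFP- libraries, with a difference of 1.06 (SE 0.16, limma adjusted p = 0.00016). It was the 1 call among 12 tested genes of the IGF list. Plxdc1, a transmembrane protein with a plexin-like domain, averaged 16.9 ± 3.07 FPKM in GFP+ and 7.10 ± 1.56 FPKM in GFP- cells (SD, n = 4 each; difference 1.14, adjusted p = 1.4e-05). Epha3, an ephrin receptor, averaged 11.1 ± 0.664 and 5.48 ± 1.01 FPKM (difference 0.91, adjusted p = 0.0078, or 0.142 with a pseudocount of 0.1) and was the 1 call among 28 axon guidance genes. Cntfr, the binding subunit of the receptor for ciliary neurotrophic factor, averaged 9.91 ± 1.66 FPKM in GFP+ and 4.32 ± 0.881 FPKM in GFP- cells (difference 1.04, adjusted p = 0.035), and its call was lost without any of 6 single libraries (GFP+ replicates 1, 2 and 4 and GFP- replicates 1, 2 and 4; adjusted p up to 0.137).

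In the Hedgehog pathway, the inhibitor Hhip was the 1 call among 14 tested genes, and the median of the list was 0.14. Hhip, a membrane protein that binds Hedgehog ligands and is itself induced by them, had 47.6, 48.2, 46.8 and 41.9 FPKM in GFP+ and 27.8, 31.3, 26.9 and 25.7 FPKM in GFP- replicates 1 to 4. The groups did not overlap, and the difference was 0.71 (SE 0.17, limma adjusted p = 0.019). That call was lost without any of 5 single libraries (GFP+ replicates 1, 2 and 3 and GFP- replicates 3 and 4; adjusted p up to 0.0753). Ptch1, the receptor and a target of the pathway, averaged 49.2 ± 3.31 FPKM in GFP+ and 39.0 ± 1.35 FPKM in GFP- cells, with a difference of 0.33 (adjusted p = 0.73, or 0.0067 with the block). Ihh, the ligand made by prehypertrophic chondrocytes, averaged 132 ± 9.96 and 159 ± 9.21 FPKM, a difference of -0.26 (adjusted p = 0.93, or 0.025 with the block). Gli1, a transcriptional target, differed by 0.22 (adjusted p = 0.89).

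Of the Wnt genes, 1 of 32 was called higher and 1 lower, and these act in opposite ways on the pathway. Rspo4, a secreted protein that amplifies Wnt signals, averaged 2.88 ± 0.609 FPKM in GFP+ and 1.32 ± 0.353 FPKM in GFP- cells (SD, n = 4 each; difference 0.74, limma adjusted p = 0.0035, or 0.508 with a pseudocount of 0.1). Sfrp1, a secreted antagonist, averaged 1.69 ± 0.607 and 4.0 ± 0.533 FPKM (difference -0.91, adjusted p = 0.0032). Its relative Sfrp5, at 89.2 ± 13 FPKM in GFP+ and 64.1 ± 9.39 FPKM in GFP- cells, was not called (difference 0.47, adjusted p = 0.11).

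Of the BMP genes, 0 of 27 were called higher and 2 lower, against 0.384% and 1.59% over all genes. Gdf5, a BMP-family ligand of joints and cartilage, averaged 11.5 ± 0.962 FPKM in GFP+ and 20.4 ± 4.37 FPKM in GFP- cells (difference -0.75, limma adjusted p = 0.020). Id4, a target and inhibitor of helix-loop-helix factors, averaged 18.2 ± 3.66 and 28.2 ± 3.65 FPKM (difference -0.62, adjusted p = 0.047). The Gdf5 call was lost without any of 6 single libraries (GFP+ replicates 2, 3 and 4 and GFP- replicates 1, 3 and 4; adjusted p up to 0.11) and the Id4 call without any of 7 (all but GFP+ replicate 1; adjusted p up to 0.215). Among 14 TGF-beta genes, Fst, an activin antagonist, was the 1 call, at 0.603 ± 0.177 FPKM in GFP+ and 1.72 ± 0.692 FPKM in GFP- cells (difference -0.74, adjusted p = 0.0035).

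Both blood coagulation genes in the set of named genes were higher in GFP+ cells. F5, coagulation factor V, had 16, 19.6, 14.9 and 11.2 FPKM in GFP+ and 4.14, 6.19, 7.68 and 4.85 FPKM in GFP- replicates 1 to 4, without overlap (difference 1.30, SE 0.19, limma adjusted p = 7.7e-05). F13a1, the catalytic subunit of coagulation factor XIII, had 77.1, 136, 80.6 and 75.6 FPKM in GFP+ and 31.6, 42.7, 55.9 and 30.0 FPKM in GFP- replicates. GFP+ replicate 2 was far above the other GFP+ libraries in F13a1, and the groups did not overlap (difference 1.18, adjusted p = 0.0035, or 0.0598 in the unblocked fit of only the 8 libraries).

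The remaining genes that the rule for naming picked were Gjb6, Calml3, Icam1 and Lrrc8d. Gjb6, a gap junction protein, averaged 5.43 ± 0.676 FPKM in GFP+ and 1.88 ± 1.13 FPKM in GFP- cells (SD, n = 4 each; difference 1.23, limma adjusted p = 0.0016). Lrrc8d, a subunit of volume-regulated anion channels, averaged 10.9 ± 1.28 and 5.86 ± 0.842 FPKM (difference 0.80, adjusted p = 0.0049). Icam1, an adhesion molecule, averaged 6.49 ± 1.99 and 2.99 ± 1.54 FPKM (difference 0.97, adjusted p = 0.014), and Calml3, a calmodulin-like protein, 41.1 ± 9.88 and 18.0 ± 5.67 FPKM (difference 1.16, adjusted p = 0.037). The Icam1 call was lost without GFP+ replicate 2 or GFP- replicate 1 (adjusted p up to 0.0991), and in the unblocked fit of only the 8 libraries (adjusted p = 0.114), and the Calml3 call without any of 7 single libraries (all but GFP- replicate 2; adjusted p up to 0.179). Agt, the precursor of angiotensin, chosen after its values were seen, averaged 34.8 ± 6.80 FPKM in GFP+ and 20.8 ± 2.20 FPKM in GFP- cells (difference 0.70, adjusted p = 0.0012).

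**Figure D2:**
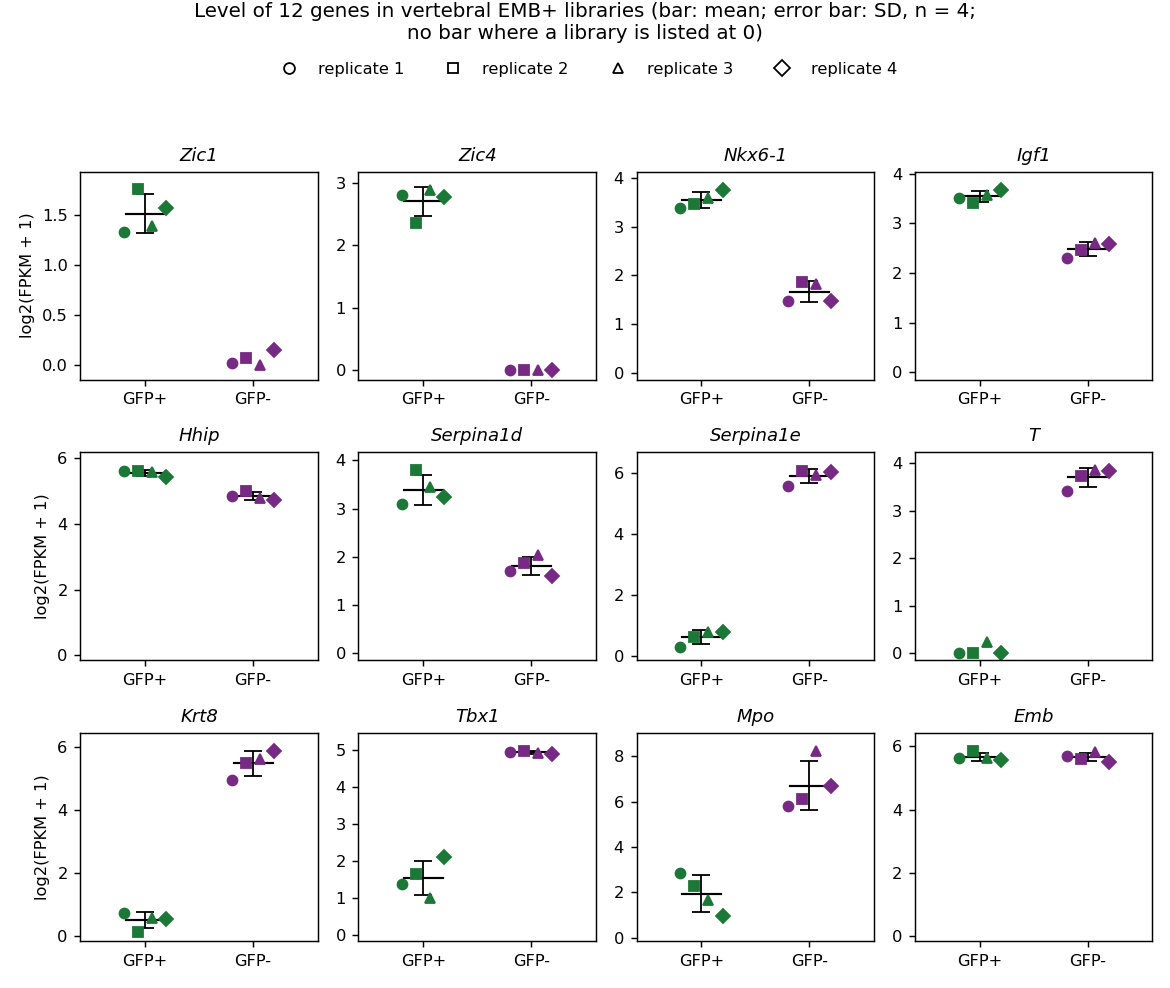
Level (log2(FPKM + 1)) of 12 genes in each vertebral EMB+ library, GFP+ left and GFP- right, with a symbol for each replicate number; bars are the mean and SD of 4 libraries, left out where a library is listed at 0. Emb is level across the groups, Zic1, Zic4, Nkx6-1, Igf1, Hhip and Serpina1d are higher in GFP+ libraries and Serpina1e, T, Krt8, Tbx1 and Mpo are lower, with no overlap in these 11 genes.

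The Serpina1 cluster on chromosome 12, copies of the gene for alpha-1 antitrypsin, a secreted inhibitor of neutrophil elastase, changed in both directions. Serpina1e had 0.220, 0.521, 0.724 and 0.715 FPKM in GFP+ replicates 1 to 4, against 46.4, 67.1, 61.0 and 64.7 FPKM in GFP- replicates. This was the largest difference among all genes tested, at -5.30 (SE 0.16, limma adjusted p = 3.1e-18), with GFP+ libraries below 1 FPKM and GFP- libraries above 46 FPKM. Serpina1d went the other way, with 7.50, 12.9, 9.84 and 8.38 FPKM in GFP+ and 2.27, 2.64, 3.11 and 2.05 FPKM in GFP- replicates (difference 1.58, SE 0.20, adjusted p = 1.2e-05). Serpina1b averaged 10.7 ± 2.78 FPKM in GFP+ and 4.22 ± 2.46 FPKM in GFP- cells (difference 1.30, adjusted p = 0.0052), and Serpina1a 3.41 ± 0.918 and 1.39 ± 0.817 FPKM (difference 0.93, adjusted p = 0.0051). Those last calls were lost in the unblocked fit of only the 8 libraries (adjusted p = 0.237 for Serpina1b and 0.0638 for Serpina1a).

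The Serpina1 copies are near-identical, so the split of reads between them is uncertain. Their longest protein-coding transcripts in the GENCODE annotation matched each other at 95.7% to 98.2% of aligned positions, and Serpina1d and Serpina1e at 96.0% of 1333. The 250 bases upstream of their starts show how close the copies are outside the transcripts, and are given from RefSeq GRCm38.p6 on the minus strand (chr12:103956898-103957147 for Serpina1e and chr12:103773634-103773883 for Serpina1d). Capitals mark the 6 positions that differ within an ungapped stretch of 183 bases, which begins at base 6 of the Serpina1e line and base 68 of the Serpina1d line and has an identity of 96.7%.
Serpina1e: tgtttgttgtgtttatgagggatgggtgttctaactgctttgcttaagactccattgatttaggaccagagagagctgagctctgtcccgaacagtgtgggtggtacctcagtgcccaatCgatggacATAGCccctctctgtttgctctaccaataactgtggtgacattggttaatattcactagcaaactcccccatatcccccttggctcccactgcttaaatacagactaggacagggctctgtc
Serpina1d: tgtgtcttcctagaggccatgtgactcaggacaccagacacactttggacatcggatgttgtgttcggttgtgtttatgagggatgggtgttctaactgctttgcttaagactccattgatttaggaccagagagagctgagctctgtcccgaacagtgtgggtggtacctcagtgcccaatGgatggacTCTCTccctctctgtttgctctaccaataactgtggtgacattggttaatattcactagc
How the deposited values divided reads that match several copies was not tested.

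Genes of the notochord and the nucleus pulposus were lower in GFP+ cells. Of 8 tested members of that list, 5 were called lower (T, Krt8, Krt18, Krt19 and Car3) and 0 higher. Over all genes tested 1.59% were called lower. The median of the list was -2.78, against -0.02 over all genes. The FPKM of the 12 list genes summed to 282, 249.6, 310.5 and 280.4 in GFP+ replicates 1 to 4, against 641, 744, 763 and 919.8 in GFP- replicates. The lowest GFP- library was above the highest GFP+ library. Most of the sum in both groups came from Car3 and Cd24a, whose levels are given below. This list was chosen with earlier results of these data known, so its direction is a description.

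T, which encodes Brachyury, the defining factor of the notochord, was listed at 0 in GFP+ replicates 1, 2 and 4 and had 0.176 FPKM in replicate 3, against 9.64, 12.2, 13.4 and 13.3 FPKM in GFP- replicates 1 to 4. Krt8, a simple-epithelial keratin kept by nucleus pulposus cells, had 0.671, 0.108, 0.492 and 0.472 FPKM in GFP+ and 29.7, 44.3, 48.0 and 57.3 FPKM in GFP- replicates. GFP+ libraries were thus near 0 in both genes, and every GFP- library was high. The differences were -3.65 for T (SE 0.14, limma adjusted p = 1.6e-15) and -4.98 for Krt8 (SE 0.23, adjusted p = 2.7e-14). Krt19 averaged 0.425 ± 0.400 FPKM in GFP+ and 32.5 ± 8.33 FPKM in GFP- cells (SD, n = 4 each; difference -4.56), and Krt18, the partner of Krt8, 0.126 ± 0.0785 and 6.73 ± 2.83 FPKM (difference -2.70). Car3, a carbonic anhydrase, stayed abundant in both groups, at 52.9 ± 10.5 FPKM in GFP+ and 391 ± 89.0 FPKM in GFP- cells (difference -2.86, adjusted p = 1.9e-06).

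Other notochord genes were not called. Foxa2, a forkhead factor of notochord and floor plate, had 14.6, 19.8, 16.6 and 10.1 FPKM in GFP+ and 16.7, 18.0, 19 and 14 FPKM in GFP- replicates 1 to 4, with overlapping groups and a difference of -0.17 (95% interval -0.66 to 0.33, limma adjusted p = 0.98). Cd24a, a surface marker of nucleus pulposus cells, averaged 203 ± 15.5 FPKM in GFP+ and 251 ± 12 FPKM in GFP- cells (difference -0.31, adjusted p = 0.82, or 0.0042 with the block). Noto, a homeobox gene of the early notochord, was listed at 0 in all 8 libraries, and Shh, the notochord's Hedgehog ligand, was listed at 0 in GFP+ libraries and reached 0.607 FPKM in GFP- libraries.

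Tbx1 and Tmem163 had differences within the range of those 5 genes. Tbx1, a T-box factor of the pharyngeal arches and head muscle, had 1.6, 2.18, 1.02 and 3.30 FPKM in GFP+ replicates 1 to 4, against 30.2, 30.5, 29.2 and 29.0 FPKM in GFP- replicates. The GFP- libraries were within 2 FPKM of each other, and the difference was -3.40 (SE 0.19, limma adjusted p = 1e-12). Tmem163, a membrane zinc transporter, averaged 0.210 ± 0.246 FPKM in GFP+ and 12.3 ± 2.76 FPKM in GFP- cells (difference -3.45, adjusted p = 1.3e-12). Slc15a5, a member of the peptide transporter family, was listed at 0 in GFP+ replicates 1, 2 and 4 and had 0.592 FPKM in replicate 3, against 7.91 to 13.7 FPKM in GFP- libraries. Rab38, a small GTPase of lysosome-related organelles, reached 0.136 FPKM in GFP+ and 7.22 to 14.8 FPKM in GFP- libraries. Perp, an epithelial membrane protein of cell junctions, had 0.774 to 1.46 FPKM in GFP+ and 10.4 to 13.7 FPKM in GFP- libraries, and Plet1, an epithelial progenitor marker, at most 0.389 FPKM in GFP+ and 4.24 to 7.10 FPKM in GFP- libraries. All of these were called lower, by -3.36, -3.30, -2.59 and -2.46 on the log2(FPKM + 1) scale. In a bulk sample, fewer cells of a type and less RNA per cell cannot be told apart.

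Hopx and Cck were also lower in GFP+ cells. Hopx, a homeodomain-only protein, had 3.81, 2.94, 4.73 and 4.14 FPKM in GFP+ and 25.8, 28.2, 38.6 and 38.8 FPKM in GFP- replicates 1 to 4, without overlap (difference -2.78, SE 0.20, limma adjusted p = 2.3e-10). Cck, which encodes the peptide cholecystokinin, had 0.528, 0.619, 0.698 and 0.0978 FPKM in GFP+ and 6.57, 8.0, 13.9 and 28.7 FPKM in GFP- replicates (difference -3.17, adjusted p = 9e-07). GFP- replicate 4 was the highest library in both genes.

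Matrix and growth genes gave scattered calls. Of 11 tendon and ligament genes, 3 were called lower (1.59% over all genes) and 0 higher, with a median of -0.10. Thbs4, a thrombospondin of tendon, had 2.79, 2.30, 1.74 and 3.21 FPKM in GFP+ and 8.60, 7.28, 12.6 and 14 FPKM in GFP- replicates 1 to 4, without overlap (difference -1.70, SE 0.17, limma adjusted p = 1.8e-07). Kera, a keratan sulphate proteoglycan, averaged 0.515 ± 0.321 FPKM in GFP+ and 2.45 ± 0.971 FPKM in GFP- cells (difference -1.17, adjusted p = 0.0041, or 0.0978 with a pseudocount of 5), and Col14a1, a fibril-associated collagen, 5.4 ± 0.780 and 11.3 ± 4.85 FPKM (difference -0.87, adjusted p = 0.0077, or 0.0592 in the unblocked fit of only the 8 libraries). Tnmd, a tendon membrane protein, averaged 11.6 ± 2.20 and 18.7 ± 4.65 FPKM and was not called (difference -0.63, adjusted p = 0.19, or 0.023 with the block).

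Among 13 imprinted growth genes, 2 were called lower (1.59% over all genes) and 0 higher, with a median of -0.15. Dlk1, a paternally expressed Notch-like ligand of progenitors, had 336, 281, 330.4 and 412 FPKM in GFP+ and 542, 547, 605 and 687 FPKM in GFP- replicates 1 to 4, without overlap (difference -0.81, SE 0.17, limma adjusted p = 0.0046). Mest, a paternally expressed gene of mesoderm, averaged 68.7 ± 14.9 FPKM in GFP+ and 141 ± 27.2 FPKM in GFP- cells (difference -1.04, adjusted p = 0.0025). En1, a homeodomain factor, was the 1 call among 5 limb and body wall factors, at 2.14 ± 0.211 FPKM in GFP+ and 3.64 ± 0.813 FPKM in GFP- cells (difference -0.55, adjusted p = 0.018). The En1 call was lost with the block (limma adjusted p = 0.056) and in the unblocked fit of only the 8 libraries (adjusted p = 0.0807). It was also lost without any of 5 single libraries (adjusted p up to 0.0888). These were GFP+ replicates 1, 2 and 4 and GFP- replicates 2 and 4.

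The genes of growth plate chondrocytes gave 1 call. Of 24 tested genes of resting and proliferating chondrocytes, 1 was called lower and 0 higher (median 0.03), and of 15 genes of prehypertrophic and hypertrophic chondrocytes 0 were called in either direction (median 0.05). The 95% intervals of the difference lay within 1 on the log2 scale for 22 of the 24 and for 15 of the 15. Among all 10689 genes tested, 10280 had such an interval. Groups did not overlap in 2 of the 24 with GFP+ libraries higher and 4 lower, and in 2 and 1 of the 15. Over all genes tested these shares were 3.35% higher and 4.86% lower. The called gene was Matn1, a cartilage matrix protein, with 16.6, 18.2, 23.1 and 24 FPKM in GFP+ and 35.2, 40.1, 39.5 and 45.6 FPKM in GFP- replicates 1 to 4 (difference -0.95, SE 0.19, limma adjusted p = 0.0040). Sox9, the factor that specifies cartilage, differed by 0.02 (95% interval -0.31 to 0.34), and Acan, the main cartilage proteoglycan, by 0.05 (-0.23 to 0.32). Col10a1, the collagen of hypertrophic cartilage, had 82.9 to 142 FPKM in GFP+ and 109 to 190.5 FPKM in GFP- libraries, a difference of -0.20 (-0.88 to 0.48). Pth1r, the receptor for parathyroid hormone-related protein, averaged 857 ± 87.4 FPKM in GFP+ and 698 ± 35.7 FPKM in GFP- cells, a difference of 0.29 (adjusted p = 0.36, or 0.0037 with the block).

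Osteoblast genes were not called either, 0 of 19 in each direction with a median of -0.19. Runx2, the factor that specifies osteoblasts, differed by -0.09 (95% interval -0.44 to 0.26) and Sp7, which acts after it, by -0.03 (-0.44 to 0.38). Bglap, which encodes osteocalcin and belongs to a family of near-identical copies, had 425, 271, 449 and 453 FPKM in GFP+ and 561, 419.5, 811 and 611 FPKM in GFP- replicates 1 to 4, with overlapping groups (difference -0.58, limma adjusted p = 0.78, or 0.00070 with the block). Cell cycle genes gave 0 calls among 24 of S phase (median -0.06) and 0 among 25 of G2 and mitosis (median 0.01). All of their 95% intervals lay within 1, as did those of 10280 of all 10689 genes tested. Top2a, a topoisomerase of dividing cells, averaged 15.9 ± 0.659 FPKM in GFP+ and 15.5 ± 2.35 FPKM in GFP- cells.

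**Figure D3:**
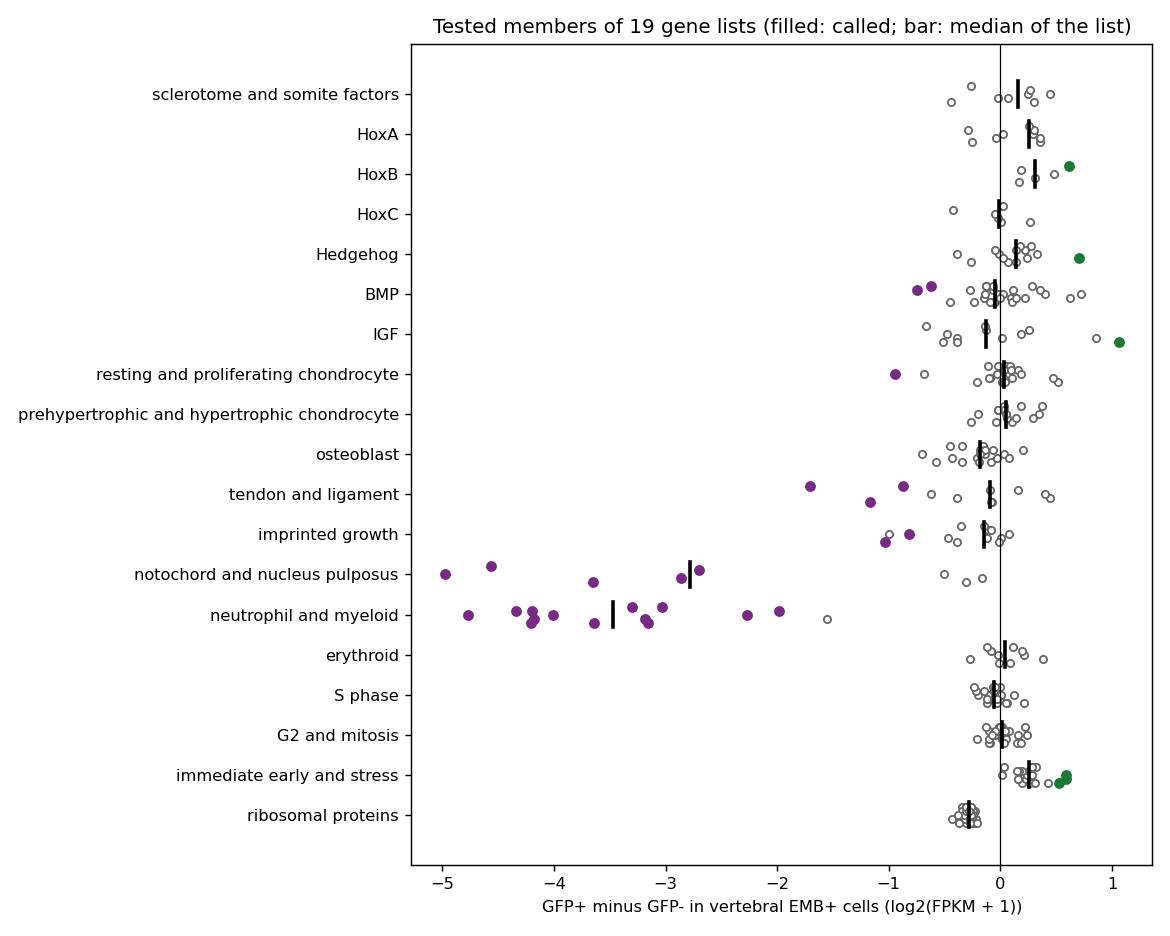
Difference between GFP+ and GFP- EMB+ cells (horizontal, log2(FPKM + 1)) for each tested gene of 19 lists; filled points are called, open points are not, and the black bar is the median of the list. The neutrophil and notochord lists lie far to the left, with medians of -3.47 and -2.78, while the chondrocyte, osteoblast and cell cycle lists lie around 0.

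Immediate early and stress genes, which respond within minutes to handling and signals, were shifted together by a small amount. All 21 tested had a positive difference, with a median of 0.26, and 17 of them (81%) were higher in GFP+ cells in 4 of 4 same-number pairs, against 11% of genes tested. Their FPKM summed to 14085, 16207, 14397 and 14391 in GFP+ replicates 1 to 4, against 11938, 13851, 12351 and 12070.1 in GFP- replicates. Replicate 2 was the highest in both groups. Of the 21, 3 were called higher (0.384% over all genes) and 0 lower. Socs3, a feedback inhibitor of cytokine signals, averaged 540.1 ± 56.1 FPKM in GFP+ and 376 ± 50.3 FPKM in GFP- cells (difference 0.52, limma adjusted p = 0.0062), and Atf3, a stress-induced factor, 366 ± 34.3 and 245 ± 35.1 FPKM (difference 0.59, adjusted p = 0.014). Hspa1a, a heat shock protein with a near-identical copy, averaged 27.8 ± 4.83 and 18.2 ± 3.37 FPKM (difference 0.59, adjusted p = 0.026). The Atf3 call was lost without GFP+ replicate 2 or GFP- replicate 1 (adjusted p up to 0.0849) and the Hspa1a call without any of 5 single libraries (GFP+ replicates 2, 3 and 4 and GFP- replicates 1 and 4; adjusted p up to 0.137).

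Klf6 and Fos were not called without the block. Klf6, an immediate early zinc finger factor, differed by 0.42 (limma adjusted p = 0.11, or 0.00052 with the block). Fos, which was far more abundant, had 3191 to 3656 FPKM in GFP+ and 2802 to 3133 FPKM in GFP- libraries (difference 0.20, adjusted p = 0.87, or 0.013 with the block). With the block 16 of the 21 were called higher, against 285 of all 10689 genes tested. Ribosomal protein genes moved by about the same size the other way. All 39 tested had a negative difference, with a median of -0.28. Of these, 38 were lower in 4 of 4 pairs, against 17% of genes tested. In the fit over all 24 libraries without the block, 0 ribosomal protein genes were called. They summed to 10600.0, 9887, 14066 and 14908 FPKM in GFP+ and 15414, 11720 and 16078 FPKM in GFP- replicates 1 to 3, with 16859 FPKM in GFP- replicate 4. Within each group replicates 3 and 4 were the highest.

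Neutrophil and myeloid genes were lower in GFP+ cells, although CD45+ cells were gated out. Of 14 tested members, 13 were called lower and 0 higher, with a median of -3.47. Over all genes tested 1.59% were called lower. All 14 were lower in 4 of 4 pairs, against 17% of genes tested. The 16 list genes in the file summed to 107, 21.3, 262 and 165.2 FPKM in GFP+ replicates 1 to 4, against 2578, 578, 4179 and 1618 FPKM in GFP- replicates. The groups did not overlap, and the GFP- sum was 24.2, 27.1, 15.9 and 9.80 times the GFP+ sum in pairs 1 to 4. Replicate 3 was the highest and replicate 2 the lowest in both groups. The count depends on the fit: the fit of only the 8 libraries called 4 of the 14 lower without the block and 10 with it.

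Single neutrophil genes spread widely between libraries. Mpo, myeloperoxidase, had 6.24, 3.87, 2.14 and 0.914 FPKM in GFP+ and 54.9, 68.3, 298 and 101 FPKM in GFP- replicates 1 to 4 (difference -4.77, SE 0.76, limma adjusted p = 0.00066, or 0.075 with the block). S100a8, a calcium-binding protein of mature neutrophils, had 36.1, 3.96, 99.0 and 60.3 FPKM in GFP+ and 934, 186.04, 1388 and 544 FPKM in GFP- replicates (difference -4.21, adjusted p = 0.0045). Its partner S100a9 followed, with 3.59 to 87.0 FPKM in GFP+ and 139 to 1213 FPKM in GFP- libraries. Each of these genes differed more than 4-fold between the lowest and highest GFP- library, and no GFP+ library reached the lowest GFP- one. The other named members were the granule proteases Elane (difference -4.34), Prtn3 (-3.64) and Ctsg (-3.03, adjusted p = 0.084 with the block), and the granule proteins Ngp (-4.20) and Camp (-4.0). Stfa1, a stefin protease inhibitor with near-identical copies, differed by -3.91 (adjusted p = 0.0070, or 0.054 with the block), and Fcnb, a ficolin, by -3.27 (adjusted p = 3.3e-08). Calls of S100a8, S100a9, Ngp, Camp and Stfa1 were lost in the unblocked fit of only the 8 libraries. Their limma adjusted p in that fit was 0.154, 0.16, 0.0743, 0.0985 and 0.183, in that order.

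The order of the GFP- libraries in the neutrophil sum was compared with that in each lower gene. Of the 170 genes called lower, 35 (20.6%) had GFP- libraries in the order of that sum (replicate 3, then 1, 4 and 2), against 4.95% of all genes tested. The list's own members set this order, and 8 of the 13 called lower had it. Without the list's members the order was found in 27 of 157 lower genes (17.2%), against 4.87% of 10675 genes. The notochord sum had another order, with GFP- replicate 4 highest and replicate 1 lowest. The part of neutrophil RNA in the lower genes was not tested.

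Markers of red cells, endothelium, T and NK cells, macrophages, muscle, neural cells and pericytes gave 1 call. For 2 of these lists the sums separated the groups. Fibroblast and periosteum genes gave 2 lower and 0 higher calls among 17 tested, with a median of -0.15. Over all genes tested 1.59% were called lower. B lineage genes gave 0 calls among 6 tested, and adipocyte and marrow stroma genes 0 among 8. Red cell genes gave 0 calls among 10 tested, with a median of 0.04, and summed to 284 to 643 FPKM in GFP+ and 229 to 619 FPKM in GFP- libraries. Endothelial genes summed to 3.43 to 11.3 FPKM in GFP+ and 4.60 to 23.7 FPKM in GFP- libraries, with GFP- replicate 4 the highest and 0 of 2 tested genes called. T and NK cell genes summed to 1.6 to 2.7 FPKM in GFP+ and 1.8 to 11.9 FPKM in GFP- libraries, with Cd3e, a defining T cell gene, listed at 0 in all 8. Macrophage and osteoclast genes summed to 69.5 to 81.6 FPKM in GFP+ and 69.2 to 86.0 FPKM in GFP- libraries. Skeletal muscle genes summed to 86.3, 90.8, 86.9 and 108.5 FPKM in GFP+ and 79.7, 63.0, 74.7 and 63 FPKM in GFP- replicates 1 to 4, so that every GFP+ library was above every GFP- one. Of 3 tested muscle genes 0 were called, with a median of 0.33, and Myod1, which defines muscle precursors, reached at most 0.03 FPKM. Neural and Schwann cell genes summed to 48.3 to 53.6 FPKM in GFP+ and 54.5 to 70.6 FPKM in GFP- libraries, without overlap, and 0 of 4 tested were called. The part of these cells in the other results was not tested. Among 5 tested genes of pericytes and smooth muscle, 1 was called lower: Acta2, smooth muscle actin, with 3.75 ± 0.244 FPKM in GFP+ and 11.7 ± 2.87 FPKM in GFP- cells (difference -1.40, limma adjusted p = 0.00051), while Rgs5, a pericyte marker, was at most 0.26 FPKM in GFP+ and 0.58 FPKM in GFP- libraries.

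**Figure D4:**
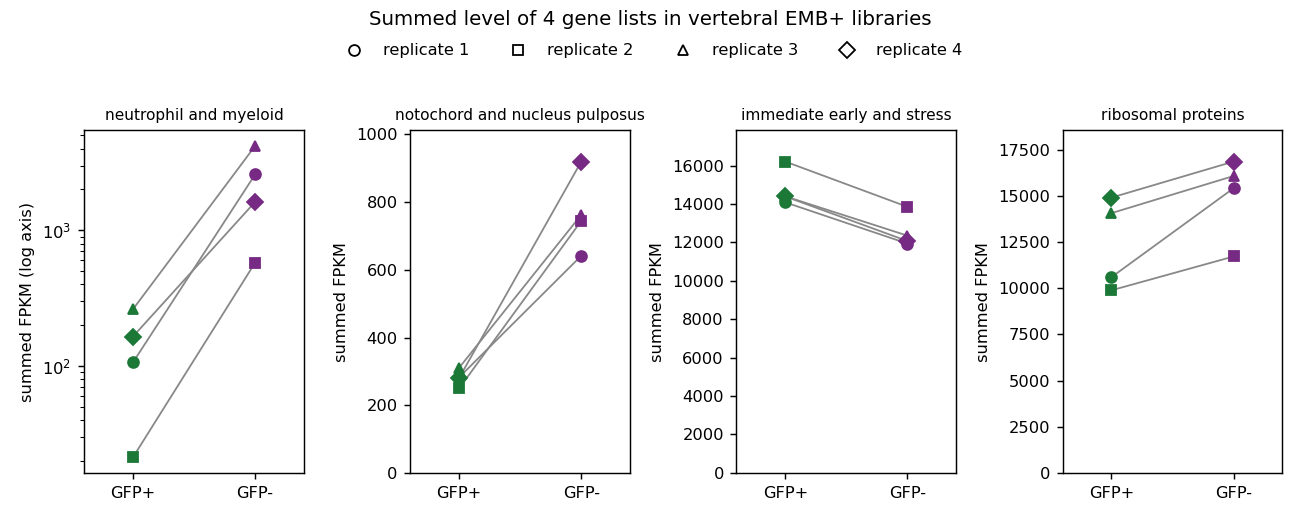
Summed FPKM of 4 lists in each vertebral EMB+ library, GFP+ left and GFP- right, with lines joining libraries of the same replicate number; the neutrophil panel has a log axis and the others start at 0. The neutrophil sums differ by 9.80 to 27.1 times within pairs. The notochord sums, mostly from Car3 and Cd24a, lie at 250 to 310.5 FPKM in GFP+ and 641 to 919.8 FPKM in GFP- libraries. The immediate early and ribosomal sums differ slightly and in opposite directions.

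The same comparison among EMB- cells shows which differences follow GFP in both. In EMB- cells 788 of the same 10689 genes were called (7.37%), 241 higher and 547 lower in GFP+ cells. Of the 41 genes called higher in EMB+ cells 10 were also called higher in EMB- cells (24.4%), where 2.25% of all genes were, and of the 170 called lower 45 were also called lower (26.5%), where 5.12% were. These comparisons share no libraries, but 1 estimate of the spread. In 76.3% of the 211 genes the EMB- difference had the same sign, a share that was not computed over all genes tested. Calls went in opposite directions for 8 genes. The difference between both comparisons was itself called for 463 genes (4.33%). Among the 211 it was called for 71, 16 of the 41 higher and 55 of the 170 lower. The 211 were picked by their EMB+ difference, which is part of this test, so a larger share than over all genes is built in.

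**Figure D5:**
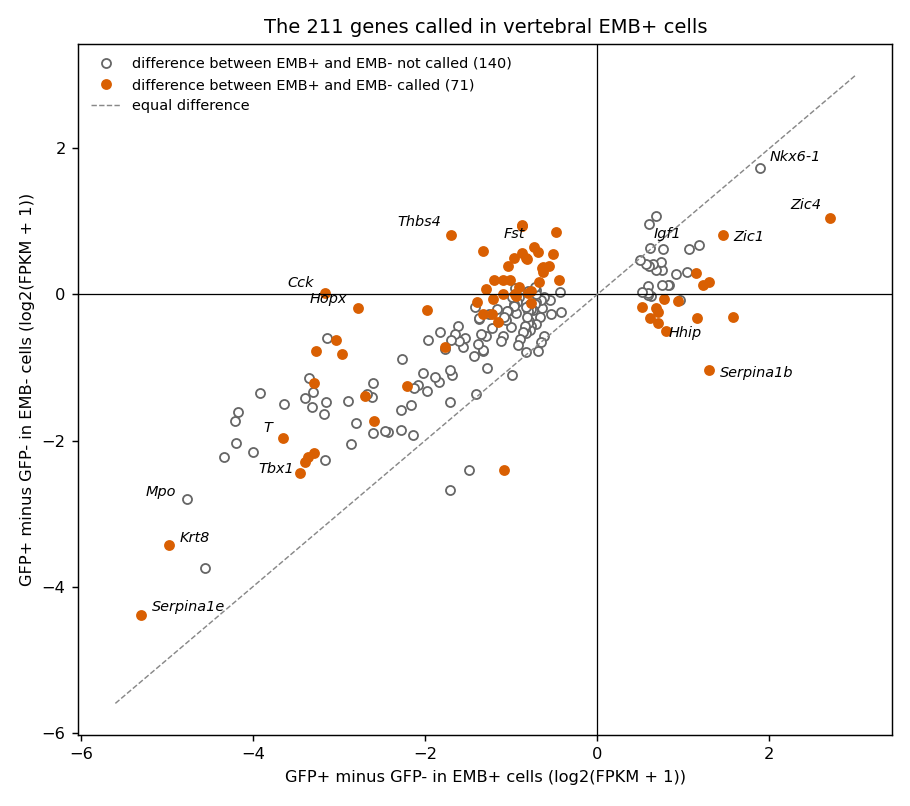
Difference between GFP+ and GFP- cells in EMB- cells (vertical) against that in EMB+ cells (horizontal), both log2(FPKM + 1), for the 211 genes called in EMB+ cells; orange points are the 71 whose 2 differences differ by limma, and the dashed line marks equal differences. Most of the genes far to the left, such as Serpina1e, Krt8, T and Tbx1, are also lower in GFP+ EMB- cells but by less on this scale. Cck and Hopx lie near 0 on the vertical axis and Thbs4 above it. The genes were picked by their EMB+ difference, which by itself favours larger values on that axis.

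Zic4, Nkx6-1, T, Krt8 and Serpina1e were called in both EMB fractions, and all but Nkx6-1 passed the test between the differences. Nkx6-1 averaged 4.78 FPKM in GFP+ and 0.740 FPKM in GFP- EMB- cells, a difference of 1.73, and the test between the 2 differences gave 0.16 (SE 0.21, limma adjusted p = 0.79). Zic4 had 1.5, 0.797, 1.47 and 1.12 FPKM in GFP+ EMB- replicates 1 to 4, against 0, 0.296, 0 and 0 FPKM in GFP- EMB- replicates (difference 1.05), and the test between the differences gave 1.66 (SE 0.18, adjusted p = 1.7e-06). T averaged 0.491 FPKM in GFP+ and 4.78 FPKM in GFP- EMB- cells (difference -1.96), so that the difference was larger by 1.68 in EMB+ cells (test between them -1.68, adjusted p = 5.3e-06), and Krt8 averaged 0.299 and 13.2 FPKM (difference -3.44, test between them -1.54, adjusted p = 0.0032). Serpina1e averaged 0.234 and 25.2 FPKM (difference -4.38, test between them -0.91, adjusted p = 0.012). In Zic4, T, Krt8 and Serpina1e 1 of the groups was below 1 FPKM in both fractions. On the log2(FPKM + 1) scale their differences then depend mostly on the level of the other group. A larger difference in EMB+ cells need not be a larger fold. Cd24a, which was not called in EMB+ cells, averaged 84.9 FPKM in GFP+ and 253 FPKM in GFP- EMB- cells (difference -1.56, test between them 1.25, adjusted p = 0.0030).

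Other genes differed in EMB+ cells and had a small or opposite difference in EMB- cells. Hhip averaged 26.0 FPKM in GFP+ and 34.5 FPKM in GFP- EMB- cells (difference -0.39), and the test between the differences gave 1.1 (SE 0.24, limma adjusted p = 0.0049). Hopx averaged 13.7 and 15.6 FPKM (difference -0.19, test between them -2.59, adjusted p = 1.4e-06), and Cck 6.41 and 6.09 FPKM (difference 0.02, test between them -3.19, adjusted p = 0.00014). Thbs4 averaged 44.0 FPKM in GFP+ and 24.6 FPKM in GFP- EMB- cells, a call in the opposite direction (difference 0.82, adjusted p = 0.0020, test between them -2.52, adjusted p = 2.6e-07). Fst was likewise higher in GFP+ EMB- cells, at 2.21 against 1.05 FPKM in GFP- (difference 0.65, test between them -1.39), and Serpina1b lower, at 7.65 against 16.3 FPKM (difference -1.03, test between them 2.33). For Igf1 the EMB- means were 8.22 FPKM in GFP+ and 4.93 FPKM in GFP- cells (difference 0.63), and the 2 differences did not pass the test between them (0.43, SE 0.23, adjusted p = 0.41).

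Several lists with 0 calls in EMB+ cells had many in EMB- cells. Over all genes tested, 2.25% were called higher and 5.12% lower in EMB- cells. The test between the differences called 4.33%. Cell cycle genes were lower in GFP+ EMB- cells, 23 of 24 of S phase and 24 of 25 of G2 and mitosis, and the test between the differences was called for 20 and 22 of them. Red cell genes were lower in 10 of 10, with the test between the differences called for all 10. Their sum averaged 711 ± 303 FPKM in GFP+ and 10100 ± 2193 FPKM in GFP- EMB- cells (SD, n = 4 each), against 499 ± 170.1 and 480.1 ± 172.1 FPKM in the GFP+ and GFP- EMB+ groups. The largest positive values of that test were Slc4a1 (4.73), Ctse (4.64), Car2 (4.49) and Hba-a1 (4.22), genes of red cell membrane, aspartic protease, carbonic anhydrase and hemoglobin. Osteoblast genes were higher in GFP+ EMB- cells in 12 of 19, with 10 called in the test between the differences, among them Bglap (-2.37) and Runx2 (-1.18). For prehypertrophic and hypertrophic genes these counts were 8 and 5 of 15. Neutrophil genes were called lower in 1 of 14 in EMB- cells, and their sum averaged 90.4 ± 31.9 FPKM in GFP+ and 349 ± 254 FPKM in GFP- cells.

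Levels in EMB+ cells of long bone, which are GFP-, did not place the vertebral groups on 1 scale. Of the 41 genes higher in GFP+ cells, 27 had a long bone mean at or below that of vertebral GFP- cells (65.9%) and 6 one at or above that of GFP+ cells (14.6%). Of the 170 lower genes, 24 had a long bone mean at or below that of vertebral GFP+ cells (14.1%) and 45 one at or above that of GFP- cells (26.5%). Zic4, Zic1 and Serpina1e were listed at 0 in all 4 long bone EMB+ libraries, and T reached at most 0.117 FPKM. The notochord list still summed to 376 to 647 FPKM in these libraries, so its sum does not follow T. Igf1 averaged 13 ± 3.68 FPKM (SD, n = 4), above both vertebral groups, and Nkx6-1 4.12 ± 0.721 FPKM, between them. Matn1 and Dlk1 had higher means in long bone than in either vertebral group, at 541 ± 99.8 and 1197 ± 227 FPKM. Neutrophil genes summed to 139 to 993 FPKM in the long bone EMB+ libraries, against 21.3 to 262 FPKM in vertebral GFP+ and 578 to 4179 FPKM in vertebral GFP- EMB+ libraries.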

How the data were processed

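Per the labels' protocols, libraries of sorted-cell RNA came from the SMART-Seq v4 kit followed by Nextera XT. The authors deposited FPKM values per protein-coding gene for 24 libraries in 6 groups of 4; Cufflinks 2.1.1, STAR 2.5.2, bcl2fastq 2.19 and GRCm38 appear in the submitters' processing notes, without their roles. Of 22053 entries, 83 with a repeated identifier, 102 with a repeated symbol and 3 with failed estimates were left out, which leaves 21865 genes. Differences were tested with limma 3.58.1 (R 4.3.3) on log2(FPKM + 1), with a mean for each of the 6 groups, moderated variances with a trend and robust fit, and Benjamini-Hochberg adjustment over the 10689 genes tested. All p-values are from this model unless the text names another fit, and a gene is called at an adjusted p under 0.05. The method was checked on simulated data.

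Same-numbered GFP+ and GFP- libraries had correlated deviations from their group means (0.173, 0.363, 0.205 and 0.253 for replicates 1 to 4), all over 0.1, so blocked values are given where they change a call. Named genes include members of the sort gate, Zic, sclerotome and Hox lists, not all of which are given. Others are the 14 per direction with the largest called difference, no overlap between groups and a mean of at least 5 FPKM in the higher group. Up to 5 per list by adjusted p and 6 per direction for the test between differences were added. Gli1, Serpina1a, Agt, Fos, Foxa2, Cd24a, Slc15a5, Rab38, Perp, Plet1, Acta2, Col2a1, Acan, Sox9, Col10a1, Runx2, Sp7, Top2a and genes listed as absent markers were chosen after their values were seen. The members and lists were chosen with earlier results of these data known.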

Additional observations from a re-analysis of the deposited data

Results flagged for a closer look

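Of 180 groups of 4 libraries examined for the named genes, 14 held 1 library that stood apart, where chance gives about 1 in 20. The measure is the gap between that library and its nearest neighbour, divided by the range of the group. GFP+ replicate 2 was the highest in F13a1 (0.917), Icam1 (0.904) and Agt (0.892) and the lowest in Car3 (0.855) and Bglap (0.848). GFP+ replicate 3 was the highest in T (1), Slc15a5 (1) and En1 (0.864), where T and Slc15a5 were listed at 0 in the other GFP+ libraries. GFP+ replicate 1 was the lowest in Eng (0.833) and Sfrp5 (0.897). Among GFP- libraries, replicate 2 was the highest in Hoxb9 (0.934) and Sox9 (0.927), replicate 1 the lowest in Sfrp1 (0.911), and replicate 4 the only one above 0 in Zic4 (1), at 2.84e-08 FPKM.

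For 44 of the 90 named genes the GFP difference itself differed between EMB+ and EMB- cells by limma with Benjamini-Hochberg adjustment. The value (EMB+ minus EMB-) was positive in 19 and negative in 25. Many named genes were picked by the EMB+ difference or by this test, so these counts are not independent of it. Red cell genes had the largest positive values, with 4.73 for Slc4a1, 4.64 for Ctse, 4.49 for Car2 and 4.22 for Hba-a1, followed by Top2a of dividing cells at 2.37. In the Serpina1 cluster the values were 2.33 for Serpina1b, 1.88 for Serpina1d, 1.02 for Serpina1a and -0.91 for Serpina1e. Zic4 had 1.66, and Zic1 had 0.65, near the threshold (limma adjusted p = 0.049). Signalling and surface genes had 1.48 for Calml3, 1.30 for Lrrc8d, 1.25 for Cd24a, 1.17 for Sfrp5, 1.12 for F5, 1.1 for Hhip, 1.1 for Gjb6, 0.94 for Agt and 0.85 for Plxdc1.

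Negative values were found in genes lower in GFP+ EMB+ cells. For genes near 0 FPKM in GFP+ cells, such as T and Krt8, these values follow the GFP- levels more than the fold. Cck had -3.19, Hopx -2.59, Thbs4 -2.52, Fcnb -2.5, Ctsg -2.41, Col14a1 -1.44, Mest -1.42, Fst -1.39, Dlk1 -1.30 and Acta2 -1.29. The genes of the notochord list had -1.68 for T, -1.54 for Krt8 and -1.31 for Krt18. Slc15a5 had -1.14, Rab38 -1.12, Tbx1 -1.11, Sfrp1 -1.02, Tmem163 -1.0, Matn1 -0.92 and Perp -0.85. Bone, cartilage and tendon genes that were not called in EMB+ cells had -2.37 for Bglap, -1.88 for Tnmd, -1.18 for Runx2 and -1.12 for Ihh.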

How the results depend on the processing

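The counts of calls depended on the filter, the fit and the scaling. For GFP+ against GFP- EMB+ cells, no filter on low values (16551 genes) gave 363 calls (304 lower), a minimum of 5 FPKM (7046 genes) 103 (26 higher, 77 lower), the 16 vertebral libraries alone 371 (118 higher), library weights 395 (128 higher, 267 lower), and quantile normalization 83 higher. Only the 8 compared libraries gave 86 higher calls and 4 of the neutrophil list lower, and with the replicate block, 843 calls (285 higher, 558 lower). The block over 24 libraries gave 233. Leaving out each of the 8 libraries in turn gave 157 to 211 calls, 20 to 41 higher (20 without GFP+ replicate 2) and 133 to 170 lower, with 11 to 13 of the neutrophil list lower.

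For EMB- cells the count was 151 higher with a pseudocount of 5, 483 (305 lower) with the stricter filter, 1336 (451 higher, 885 lower) with only the compared libraries and 1385 (465 higher, 920 lower) with weights; leaving out each library gave 750 to 769, with 223 to 232 higher. Neutrophil genes lower in EMB- cells numbered 4, 0, 2 and 4 with pseudocounts of 0.1 and 5, the compared libraries and weights, and 1 to 2 without single libraries. For the test between the differences the counts were 278 (115 negative), 987 (578 positive, 409 negative) and 1061 (603 positive, 458 negative) with the stricter filter, the compared libraries and weights, and 373 to 445 (241 to 276 positive, at least 126 negative) without single libraries. Without long bone EMB- replicate 4, chosen after seeing the data, EMB+ cells gave 77 higher calls, EMB- cells 386 higher, and the test between the differences 775 (454 positive, 321 negative). The causes were not tested, apart from the numbers of genes and libraries that these settings change.

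Of the 59 named genes called in EMB+ cells, 28 were called in all 21 alternatives, 7 were too low for the stricter filter and called in the other 20, 24 were lost in at least 1, and 13 other named genes were gained in at least 1; none of the 90 changed direction while called. The replicate block changed no call of a named gene beyond those given in the report. Depth is unknown, so counting error behind low FPKM values could not be given.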
